A study of Mus musculus with 16 samples.

Results

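The genes described here encode effector proteins of granulocytes and monocytes, together with the receptors and the factor that act on their production: Lyz2, S100a8, S100a9, F13a1, Csf1r, Csf3r, Mpo, Elane, Prtn3 and Cebpe. Their open chromatin was examined by ATAC-seq in sorted haematopoietic stem cells (HSCs) from male mice of both ages, taken before or after a transplantation, in which a transposase cuts accessible DNA. Overlapping peaks of 16 libraries were merged, and a region was taken for these genes when it was called in at least 2 libraries and one of them was the nearest protein-coding gene within 100 kb. This gave 10 regions of 33773 in all. They belonged to 7 of the 10 genes. S100a8, Mpo and Elane had none.

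Each of the 4 groups held 4 libraries. Young pre and old pre HSCs were sorted from B6 donors, young replicates from pools of 3 to 4 mice aged 8 to 12 weeks and old replicates from 1 mouse aged 24 months. Young post and old post HSCs were recovered 3 months after 1000 donor HSCs had gone into 5 young BJ recipients that were lethally irradiated and also received 300000 BJ helper marrow cells depleted of Sca-1, and the marrow of the recipients was pooled. Each library was made from 10000 HSCs by the Omni-ATAC protocol, and a pre and a post library of equal age and number share their donors. No label mentions a donor marker in the post sort, so recipient or helper HSCs cannot be told apart from donor HSCs there. The post libraries were transposed on other days than the pre libraries, so stage and day cannot be told apart.

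Neutrophils and monocytes arise from HSCs through granulocyte-monocyte progenitors. Mpo (myeloperoxidase) and the serine proteases Elane and Prtn3 are made early, in promyelocytes, and stored in primary granules. The transcription factor Cebpe drives the later granule stages, S100a8 and S100a9 form the calprotectin complex of mature neutrophils and monocytes, Lyz2 is lysozyme and F13a1 the factor XIII A chain of monocytes, macrophages and platelets. Csf3r and Csf1r are the receptors for G-CSF and M-CSF, which direct granulocyte and monocyte production. PU.1 and C/EBP factors are the textbook activators of many of these promoters.

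The promoters of 5 of the genes are shown because the called regions either lay on them or missed them. They are taken from RefSeq (GRCm38.p6), run 5′ to 3′ on the strand of the gene and hold 250 bases before and 50 from the start site on. Capitals mark matches, on either strand, to a C/EBP-type motif (TTNNGNAA) or a PU.1-type motif (GAGGAA, which contains the ETS core GGAA). Lyz2 lies at chr10:117282223-117282522 (minus strand), Csf3r at chr4:126024409-126024708 (plus), Prtn3 at chr10:79879417-79879716 (plus), Elane at chr10:79886062-79886361 (plus) and Mpo at chr11:87793534-87793833 (plus).
Lyz2: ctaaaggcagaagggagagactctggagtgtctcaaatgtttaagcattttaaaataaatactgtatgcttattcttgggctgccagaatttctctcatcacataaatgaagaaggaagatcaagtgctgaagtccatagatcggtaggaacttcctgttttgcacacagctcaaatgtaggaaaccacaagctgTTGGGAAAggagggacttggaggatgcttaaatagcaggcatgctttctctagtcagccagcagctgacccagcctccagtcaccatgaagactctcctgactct
Csf3r: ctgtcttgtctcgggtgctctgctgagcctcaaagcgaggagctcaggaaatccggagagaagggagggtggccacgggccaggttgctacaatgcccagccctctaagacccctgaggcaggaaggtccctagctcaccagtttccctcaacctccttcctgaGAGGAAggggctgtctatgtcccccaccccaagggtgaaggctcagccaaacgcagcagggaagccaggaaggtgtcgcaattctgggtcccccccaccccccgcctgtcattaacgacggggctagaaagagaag
Prtn3: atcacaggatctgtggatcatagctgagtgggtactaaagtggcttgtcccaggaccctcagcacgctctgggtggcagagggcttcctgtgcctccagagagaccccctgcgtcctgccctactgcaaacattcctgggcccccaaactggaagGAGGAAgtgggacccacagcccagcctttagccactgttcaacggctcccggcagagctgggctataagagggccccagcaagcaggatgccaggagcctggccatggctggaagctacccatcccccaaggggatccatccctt
Elane: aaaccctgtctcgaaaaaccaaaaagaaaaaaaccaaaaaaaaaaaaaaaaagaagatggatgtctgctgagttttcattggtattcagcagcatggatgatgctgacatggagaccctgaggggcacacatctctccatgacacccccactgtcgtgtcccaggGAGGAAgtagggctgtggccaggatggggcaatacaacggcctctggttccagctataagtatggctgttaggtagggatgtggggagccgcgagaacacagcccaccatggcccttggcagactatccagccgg
Mpo: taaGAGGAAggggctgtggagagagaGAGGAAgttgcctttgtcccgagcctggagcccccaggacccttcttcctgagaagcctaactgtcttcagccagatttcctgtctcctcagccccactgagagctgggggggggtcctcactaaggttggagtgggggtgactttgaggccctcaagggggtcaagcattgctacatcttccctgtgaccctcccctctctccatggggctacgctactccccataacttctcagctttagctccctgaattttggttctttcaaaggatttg
The Lyz2 promoter held 1 C/EBP-type match and no PU.1-type match, and the other 4 held PU.1-type matches (2 in Mpo, 1 each in Csf3r, Prtn3 and Elane) and no C/EBP-type match. Of 32851 promoters of this length, 40.7% held the C/EBP-type and 28.3% the PU.1-type letters, so such a match is common. RUNX-type letters (TGNGGT, in 45.8% of promoters) were found in Lyz2 and Csf3r, at 1 match each, and in neither Prtn3, Elane nor Mpo. Of these promoters, those of Lyz2 and Csf3r overlapped a called region. Those of Prtn3, Elane and Mpo overlapped none, nor did those listed for S100a8, S100a9 and F13a1. The promoters of these last 3 genes, not printed, also held C/EBP-type matches: 1 in S100a8, 2 in S100a9 and 1 in each of the 2 listed for F13a1. PU.1-type matches were found in S100a8 (2) and in both F13a1 promoters (2 and 1), and not in S100a9. RUNX-type letters were found in S100a9 (2 matches) and in 1 of the F13a1 promoters (1 match), and not in S100a8.

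The value compared was whether a peak was called. In a pooled sort, fewer open cells and less opening per cell cannot be told apart, and a region without a peak was not called, which is not the same as closed. Peak lists held 9636 to 28323 peaks in young pre, 5711 to 30541 in old pre, 30807 to 32557 in young post and 14030 to 31025 in old post, and no read depth was used. Regions were found at 11 of 12 HSC marker genes (72 regions; Ly6a had none), among them Procr, Mecom, Hlf and Fgd5. Of the 72, 13.9% were called in all 16 libraries, near the 15.6% of all regions. Of 12 marker genes of mature granulocytes and monocytes, Ly6g, Camp, Ngp, Chil3 and Mmp8 had no region and 7 had 14 regions. Among the other types, 2 of 8 T and NK genes, 5 of 7 erythroid, 5 of 6 megakaryocyte and 6 of 7 endothelial and stromal genes had a region. Of the T and NK genes, Cd3e, Cd3g, Cd4, Cd8a, Nkg7 and Ncr1 had none, while Lck had 1 region and Klrb1c 7. Of these 8 regions 37.5% were called in all 16 libraries, against 15.6% of all regions. The share of all genes with a region was not counted, so these counts do not tell cell types apart. The mature myeloid marker regions were called at 21.4% to 78.6% in young pre, 7.14% to 78.6% in old pre, 85.7% to 100% in young post and 35.7% to 85.7% in old post libraries. Over all 33773 regions these shares were close to those, at 26.7% to 79.3%, 15.8% to 83.6%, 86% to 90.7% and 38.2% to 86.1% in the same order.

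The granule protease genes were flanked by open chromatin and their promoters were not called. Upstream of Prtn3 (proteinase 3), a region at chr10:79877050-79878895, Prtn3 region 1, was called in 16 of 16 libraries. Its median summit lay 1859 bp before the start site, and its upper end 522 bp short of the promoter printed above. Regions called in all 16 libraries made up 15.6% of all regions, and the regions described here held 2 of these, the other being at Cebpe. The peak area, the authors' score for the area under the significance curve, was 1509 to 2123 in young pre 1 to 3 and 422 in young pre 4, and 2136, 2629, 1329 and 268 in old pre 1 to 4. It was 2421, 2270, 2535 and 2489 in young post 1 to 4, against 1774, 2316, 2145 and 721 in old post 1 to 4. The low areas were in the 3 libraries with the shortest lists (young pre 4, old pre 4, old post 4), and the areas are not normalised between libraries. Ranked among the 5262 regions called in every library, this peak lay at the 43.7th, 57.1st, 51.9th and 15.5th percentile of area in young pre 1 to 4, and at the 65.3rd, 71.1st, 60th and 24.9th in old pre. In young post it lay at the 51.1st, 50th, 60.2nd and 50.9th, and in old post at the 45.9th, 53.5th, 46.9th and 31.9th. The ranges of all 4 groups overlapped.

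The second Prtn3 region (chr10:79880438-79885163, Prtn3 region 2) spanned the body of Prtn3 and the gap towards Elane (neutrophil elastase), and was called in 13 of 16 libraries. It was found in 3 of 4 young pre, 3 of 4 old pre, 4 of 4 young post and 3 of 4 old post libraries, and missing in the 3 shortest lists. It held separate summits, of which those 2516 bp and 4181 bp after the Prtn3 start site were covered by a peak in all 13 libraries. The second of these lies beyond the end of Prtn3 and 2464 bp before the Elane start site. A summit 1253 bp after the Prtn3 start was covered in 11 libraries and the last, at 4908 bp, in 9. The largest peak had an area of 1447, 502 and 478 in young pre 1 to 3, 1134, 3753 and 315 in old pre 1 to 3, 1596, 1151, 1471 and 1528 in young post 1 to 4, against 618, 1768 and 1325 in old post 1 to 3. The young post areas lay within the range of the old pre areas, and the groups overlapped. In old pre 2 a single peak of 4726 bp, with an area of 3753, covered the whole region, while the largest peak of each other library there was 540 to 2222 bp wide. The region ended 1149 bp before the start of Elane. The closest region to Elane, 1057 bp away and called in 13 libraries, lay nearest to Cfd, which encodes complement factor D (adipsin).

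Mpo had no region of its own. The closest open region lay 14896 bp from the gene, nearest to Tspoap1, and was called in 1 of 8 pre and 3 of 8 post libraries. Within 50 kb of Mpo there were 5 regions, nearest to Supt4a, Tspoap1 and Mks1. Cebpe, by contrast, had a region on each side and none on the gene. Cebpe region 1 (chr14:54705447-54706983) had its median summit 4524 bp below the lower-coordinate end of the gene and was called in 16 of 16 libraries. Its area was 2119, 1374, 1587 and 608 in young pre 1 to 4, 1863, 2060, 990 and 465 in old pre, 2453, 2447, 2422 and 2575 in young post, and 1791, 2388, 2411 and 879 in old post. By percentile among the regions called in every library it ranged from 40.2 to 56.3 in young pre, 35.5 to 66.6 in old pre, 52.6 to 58.2 in young post and 46.7 to 59.7 in old post. It thus sat near the middle of such regions in every group, and the groups overlapped.

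Cebpe region 2 (chr14:54713951-54715014) had its summit 2060 bp above the higher-coordinate end and was called in 10 libraries. These were young pre 1 to 3, old pre 1 and 2, young post 1 to 4 and, of the old post libraries, replicate 3. The largest peak had an area of 795, 331 and 254 in young pre 1 to 3, 241 and 344 in old pre 1 and 2, 564, 553, 320 and 313 in young post 1 to 4, and 241 in old post 3. Old libraries held 3 of 8 calls and young libraries 7 of 8, against 4.42 expected in old from the length of the lists. This difference did not pass the exact test weighted for list length (p = 0.0512, adjusted p = 0.812, two-sided, Benjamini and Hochberg over 15182 regions; range over its alternatives 0.485 to 1). Both libraries of a donor enter that test as if independent. Calls above expectation in old were -1.42 in that test and -0.756 when compared within each stage. They were -0.236 on transposition days that held both ages, a setting with fewer libraries. The sign was the same in all 23 alternatives. Of the 1840 regions called in 10 libraries, 28 others had the same pattern of calls. A side peak at its upper end was covered in 7 libraries.

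**Figure D1:**
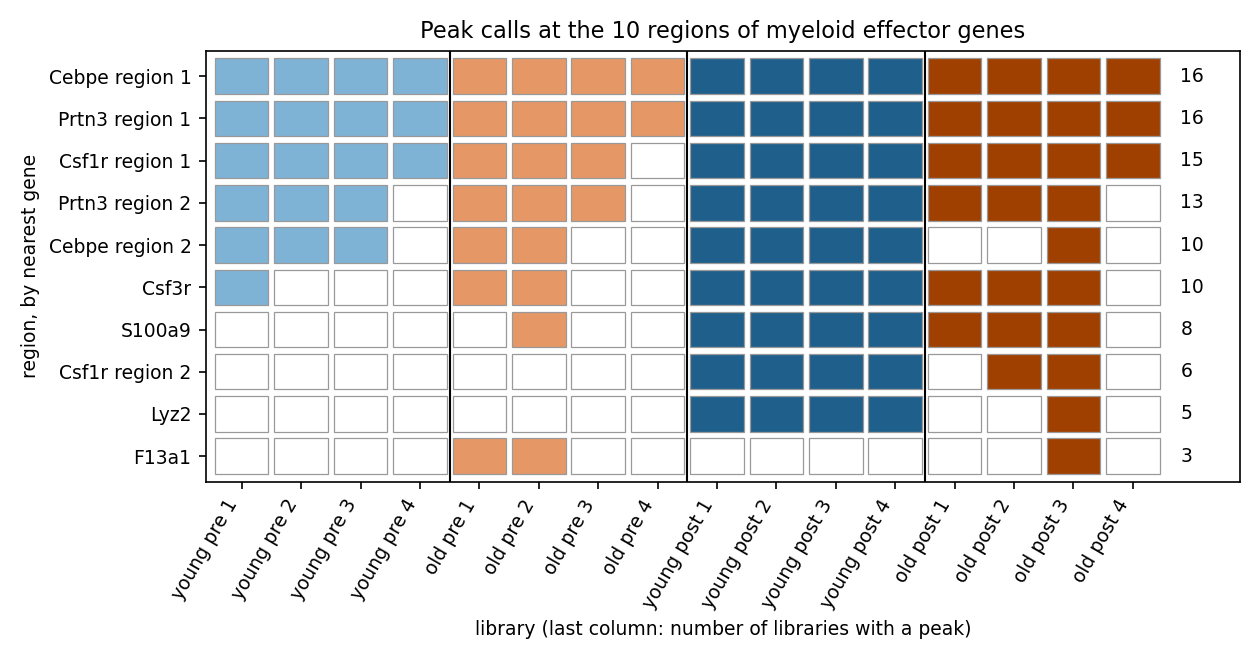
Peak calls (filled) at the 10 regions (rows, ordered by number of calls) in the 16 libraries (columns, coloured by group). Prtn3 region 1 and Cebpe region 1 are filled in all 16 columns, and Lyz2 and Csf1r region 2 in no pre column.

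Of the receptor genes, Csf1r had both its regions inside the gene and Csf3r had 1 on its promoter. In Csf1r, Csf1r region 1 (chr18:61107479-61109172, within the gene) was called in 15 libraries, all except old pre 4. Its area was 2239, 1075, 1596 and 430 in young pre 1 to 4, 2036, 2244 and 955 in old pre 1 to 3, 2340, 2288, 2426 and 2627 in young post, and 1760, 2194, 2274 and 800 in old post. The median peak stood in the top 10.8% of its list. Csf1r region 2 (chr18:61120515-61120908, within the gene) was called in 0 of 8 pre and 6 of 8 post libraries, in young post 1 to 4 and in old post 2 and 3. Its areas were 291, 292, 278 and 309 in young post and 210 and 259 in old post, close to the smallest area of 200 in the lists, and its median peak stood at 82.9% from the top. With donors as pairs, the weights for list length gave 5.15 of the 6 calls to post libraries, and the difference did not pass (exact test, p = 0.434, adjusted p = 1; range over alternatives 0.0346 to 1). All 6 calls already fell in post libraries, so the exact test could not pass in that direction whatever the cause. The low end of that range is limma on presence, which takes no account of list length.

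The Csf3r region (chr4:126023927-126025152) covered the promoter printed above, with summits of 6 libraries 57 to 73 bp after the start site and of 4 libraries at -217 to -190 bp. It was called in young pre 1, old pre 1 and 2, all 4 young post libraries and old post 1 to 3. Its area was 285 in young pre 1, against 745 and 798 in old pre 1 and 2, 599, 512, 729 and 732 in young post 1 to 4, against 559, 624 and 479 in old post 1 to 3. In young libraries the pre area lay below all 4 post areas, and in old libraries both pre areas lay above all 3 post areas. These areas are not normalised and young pre gives 1 value, so the difference was not tested. Calls stood at 5 of 8 in old and 5 of 8 in young libraries, with 4.42 expected in old (exact test, adjusted p = 1; range over alternatives 0.94 to 1). In the pre libraries alone they stood at 2 of 4 in old and 1 of 4 in young (adjusted p = 1; range 0.725 to 1). The smallest p that the exact test could reach there was 0.00337. With 9407 regions tested and 215 at an unadjusted p under 0.05, that is too large to pass the adjustment. The pre result therefore decides nothing on age.

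The Lyz2 region (chr10:117282035-117282450) lay on the start site, with summits 6 bp before it in young post 1 to 3 and 29 bp before it in young post 4 and old post 3. The C/EBP-type match in its promoter begins 55 bases before the start site. The region was called in those 5 libraries and in no pre library. Its areas were 316, 317, 332 and 355 in young post 1 to 4 and 294 in old post 3. Against the length of the lists, 4.78 of the 5 calls were expected in post libraries (donors as pairs, exact test, p = 1, adjusted p = 1; range over alternatives 0.0634 to 1). All 5 fell there, so this test could not call a gain in post. After transplantation, 1 of 4 old and 4 of 4 young libraries called it, with 1.42 expected in old (adjusted p = 1; range 0.109 to 1). At 5 calls, 1 in old was the fewest possible, so a lower share in old could not pass either. The same 5 libraries and no others called 384 further regions, of 1342 called in 5 libraries. A separate peak nearest to Lyz2 was called in young post 3 alone and is not among the regions described here.

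**Figure D2:**
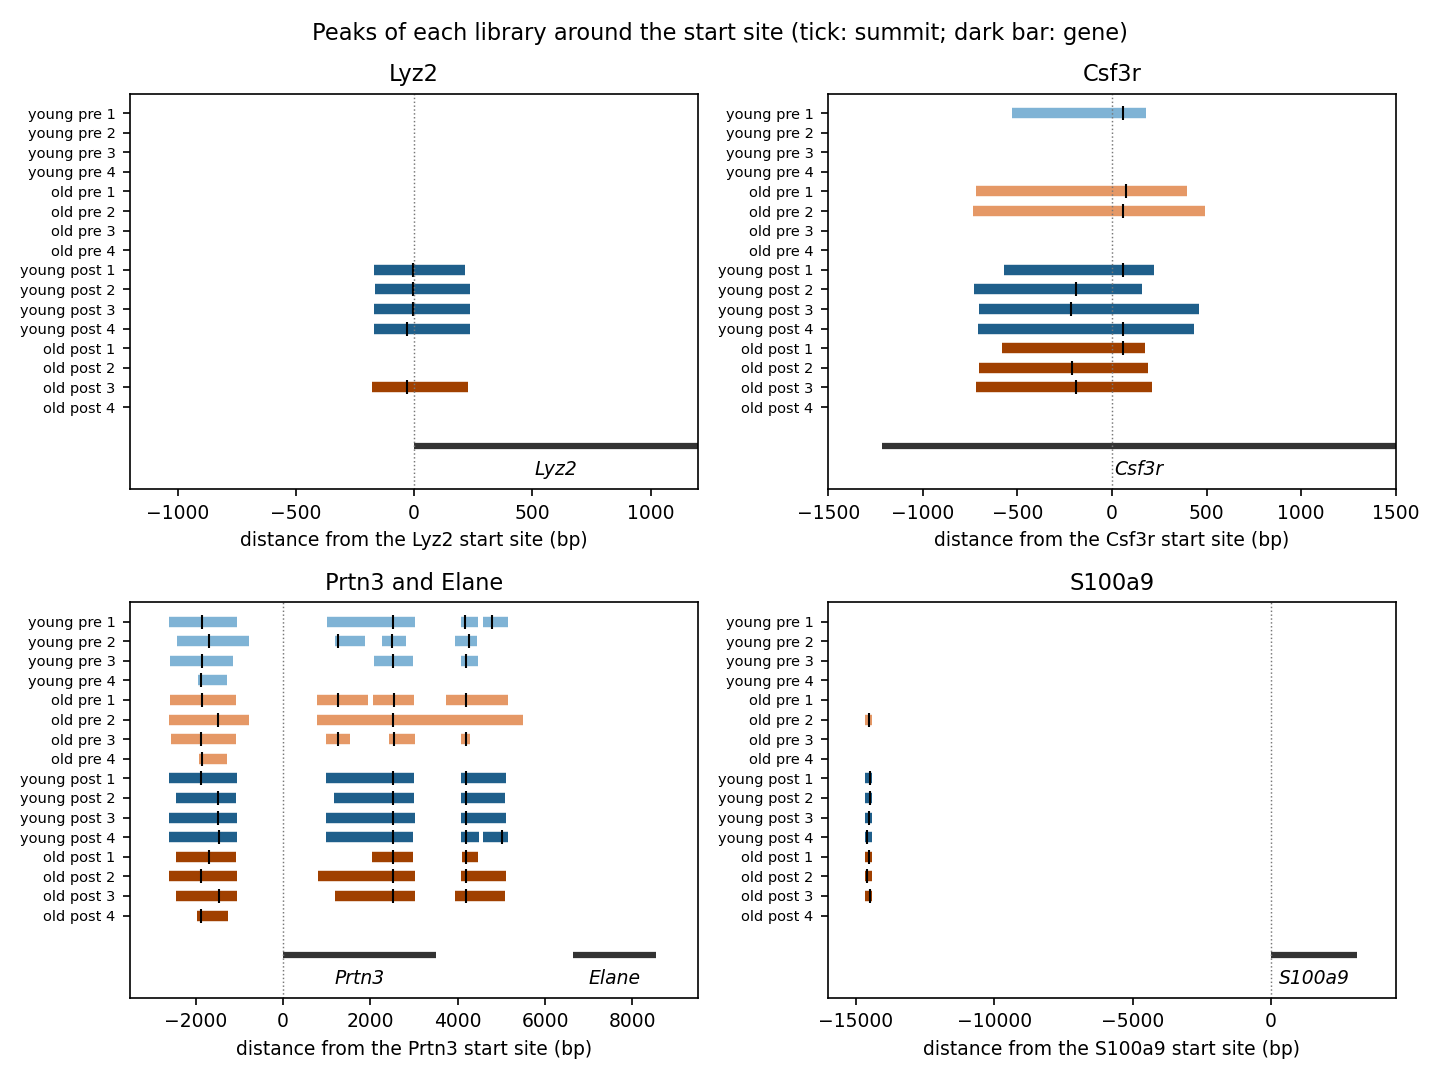
Extent of each library's peaks (bars, coloured by group; tick, summit) by distance in bp from the start site of Lyz2, Csf3r, Prtn3 and S100a9, with genes as dark bars. Peaks lie over the start site at Lyz2 (5 libraries) and Csf3r (10 libraries), on both sides of it at Prtn3 and 14509 bp before it at S100a9.

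S100a8 and S100a9 lie side by side and shared a single region within 50 kb (chr3:90710136-90710399), 14509 bp before the S100a9 start site and 40102 bp from S100a8. It was called in old pre 2, young post 1 to 4 and old post 1 to 3. The area was 209 in old pre 2, 261, 201, 248 and 288 in young post 1 to 4, against 250, 324 and 214 in old post 1 to 3, so all its peaks were near the lower end of the lists. With donors as pairs, 5.96 calls were expected in post libraries against 7 observed (exact test, p = 0.152, adjusted p = 1; range over alternatives 0.0346 to 1, the lowest by limma on presence). Those 7 were the most that its pairs allow, so the exact test could not call a gain in post. Between the ages it stood at 4 of 8 calls each, with 3.35 expected in old (adjusted p = 1; range 0.94 to 1). The F13a1 region (chr13:37130756-37131151) lay 80610 bp before the start site and was called in old pre 1, old pre 2 and old post 3, with areas of 253, 271 and 209, and in no young library. It had too few calls to be tested. Of 1501 regions called in 3 libraries, 191 (12.7%) were called in old libraries alone and 502 (33.4%) in young libraries alone. Old pre 1 and 2 were transposed on day 1, which held no young library, and old pre 3, from the donor of old post 3, did not call it. Old post 1 and 2, from the donors of old pre 1 and 2, did not call it either. Old post 3 was transposed on day 5 together with young post 1 and 2, which had no call. A further peak near F13a1 was called in old pre 2 alone.

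**Figure D3:**
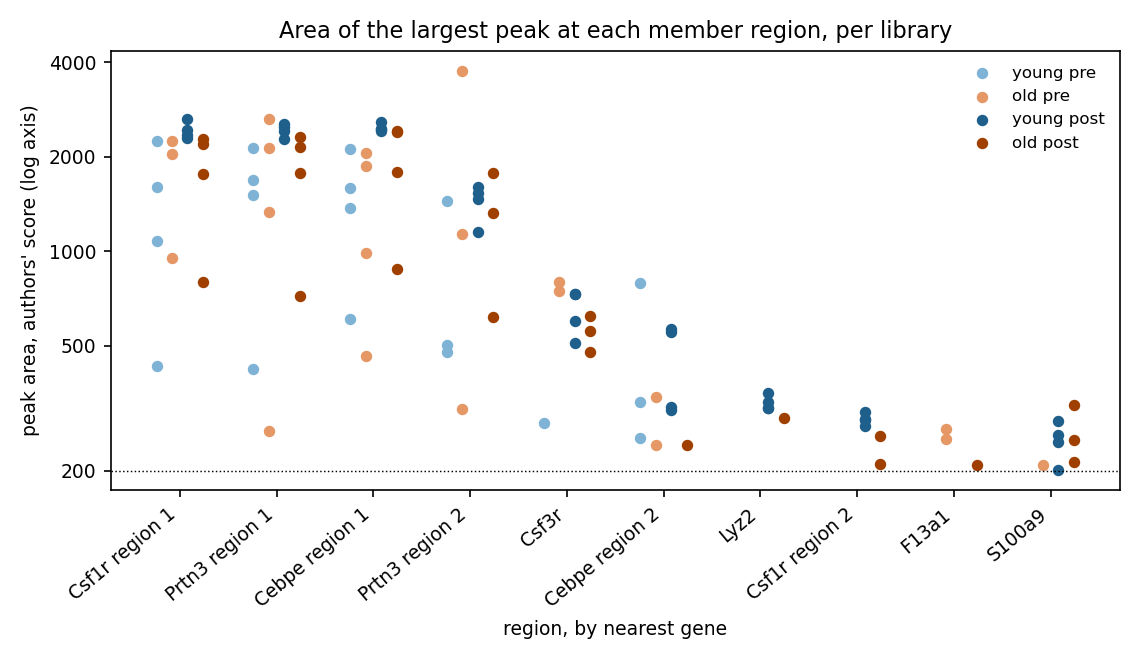
Area of the largest peak (the authors' score, log axis, not normalised between libraries) at each region, 1 point per library with a call, coloured by group. Csf1r region 1, Prtn3 region 1 and Cebpe region 1 reach 2575 to 2629, whereas Lyz2, Csf1r region 2, F13a1 and S100a9 stay between 201 and 355, next to the smallest area of 200 (dotted line).

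The regions spread over a gradient of area. Prtn3 region 1, Cebpe region 1 and Csf1r region 1 had their median peak in the top 10.8% to 11.5% of a list, followed by Prtn3 region 2 at 24.5%, Csf3r at 51.6% and Cebpe region 2 at 75.3%. Lyz2, S100a9, Csf1r region 2 and F13a1 had theirs at 78.2% to 89.0%, and these 4 had no peak left when each list was shortened to 14008 peaks, the length of the third shortest. Under the same shortening, Prtn3 region 1, Cebpe region 1, Csf1r region 1 and Prtn3 region 2 kept 16, 16, 15 and 13 calls, Csf3r kept 3 of its 10 and Cebpe region 2 kept 1 of its 10.

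Across the 10 regions, the number called followed the length of the list. Young pre 1 to 4 called 6, 5, 5 and 3, old pre 1 to 4 called 7, 8, 4 and 2, young post libraries called 9 each, and old post 1 to 4 called 6, 7, 10 and 3. The numbers expected, from regions with an equal number of calls, were 7.55, 5.1, 4.65 and 2.99 for young pre, 6.97, 7.95, 4.03 and 2.02 for old pre, 9.21, 8.57, 8.85 and 9 in young post, and 5.58, 7.66, 8.64 and 3.23 in old post. The excess over expectation was -0.32 ± 0.84 in young pre (SD, n = 4), 0.01 ± 0.04 in old pre, 0.09 ± 0.27 in young post and 0.22 ± 0.88 in old post. The means differed by less than the SDs of young pre and old post, and the widest gaps from expectation were in young pre 1 (-1.55) and old post 3 (1.36). The excess is relative and balances out over the 16 libraries.

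**Figure D4:**
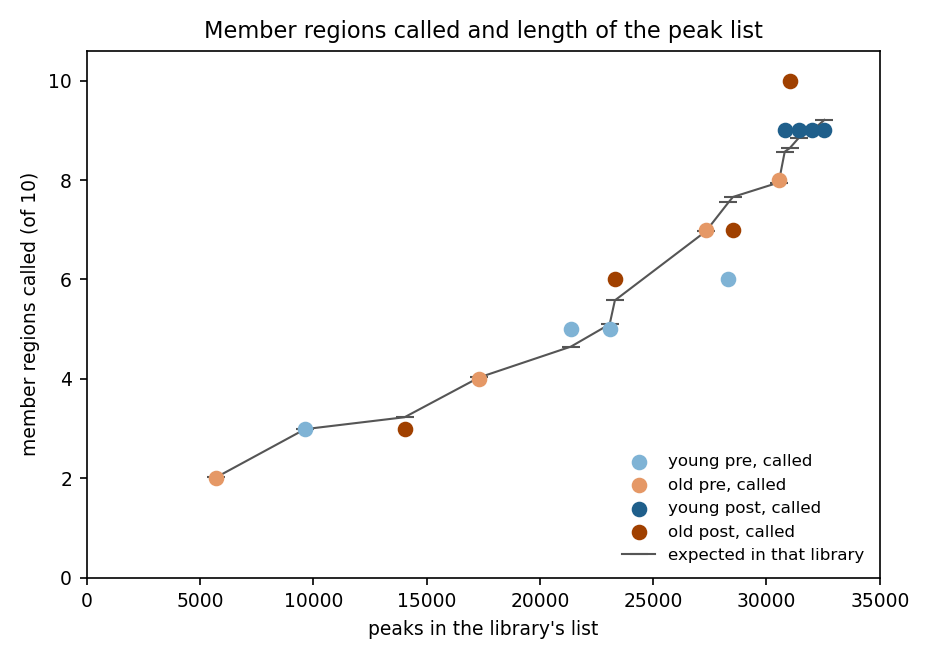
Number of the 10 regions called in each library (points, coloured by group) against the number of peaks in its list, with the number expected in that library from regions of equal call frequency (grey dashes joined by a line). Called numbers run from 2 in the shortest list to 10 in old post 3 and differ from the expected number by -1.55 to 1.36.

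By the exact test, 0 of the regions passed in any comparison. Old against young before transplantation tested 2 of them, and 0% of 9407 regions passed (215 at an unadjusted p under 0.05, and limma called 0). Of those 2, Csf3r could not have passed at its number of calls. After transplantation 2 were tested, against 0.465% of 5163 regions called, and over both stages 5, against 0.27% of 15182 (0.25% higher in old and 0.0198% higher in young). For the exact test, higher in a group means more calls there than the weights for list length expect, not more than in the other group. For limma it means a larger share of libraries with a call. Post against pre within donors tested 3, against 0.393% of 4838 regions called, and all regions called there were higher in pre. The exact test called 0 regions higher in post and, after transplantation, 0 higher in young. The 3 regions had the most post calls their pairs allow, and the 2 tested after transplantation the fewest old calls possible. They could not pass as higher in post or lower in old, so their results leave such differences undecided. Limma on presence, without weights for list length, turned these directions: it called 756 regions between stages, 753 of them higher in post, and 513 after transplantation, all lower in old, where the 24 of the exact test were all higher in old. At an unadjusted p under 0.05 the exact test gave 0 of them in each of these comparisons, and the test without weights 2 in post against pre and 0 elsewhere. Limma, fitted to all regions that varied, called 0 of them between the ages and 2 in post against pre, with 0, 2, 1 and 4 at an unadjusted p under 0.05 in the order above. The other 5 regions were called too often or too rarely to be tested. By simple counts, 6 of the 10 were called in more post than pre libraries, against 75.6% of all regions, 1 (F13a1) in more pre than post, against 4.96%, and 5 of 10 in more young than old libraries, against 57.6%. F13a1 was the single region called in more old than young libraries, against 7.71% of all. Before transplantation 3 were called in more old than young libraries (20.1% of all regions) and 2 in more young than old (27.5%), and after it 1 in more old (2.2%) and 6 in more young (54.1%). All 4 young post libraries called 9 of the 10, against 79.9% of all regions, and 2 had no pre call, against 9%. Lyz2, S100a9 and Csf1r region 2 were called in 4 of 4 young post and 0 of 4 young pre libraries, a pattern held by 7.13% of all regions, and 0 of the 10 in 4 of 4 young post and 0 of 4 old post, against 1.52%.

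Other genes of granulocytes and monocytes were counted in the same way. In 4 lists of 53 genes, 39 genes had 117 regions, and by the exact test 0 passed of 39 tested before transplantation, 24 after it, 65 over both stages and 23 within donors. Over all regions tested, 0%, 0.465%, 0.27% and 0.393% passed in the same order, so 0 in sets of this size is near the overall share. Of the 117 regions, 12.8% were called in all 16 libraries, against 15.6% of all regions. In more post than pre libraries 79.5% were called, against 75.6%, and in more young than old libraries 66.7%, against 57.6%. These differences from all regions were not tested. Among primary granule and protease genes, 6 of 10 had a region, and Ctsg (cathepsin G), Ms4a3, Prss57 and Cst7 had none. Among secondary and tertiary granule genes, 10 of 17 had a region, 28 in all, of which 1 (3.57%, against 15.6% of all regions) was called in every library, at the oxidase subunit gene Cyba. Camp, Ngp, Lcn2, Mmp8, Cybb, Chil3 and Retnlg had none. Monocyte and macrophage genes had regions at 15 of 18 (40 regions), with 14 of them near Ly86, a partner of an endotoxin receptor family member. Myeloid growth factor receptor genes had regions at 8 of 8 (34 regions, 8 or 23.5% of them in every library), and 3 of the 5 regions of Csf2ra, the GM-CSF receptor alpha chain, were called in all 16.

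The largest differences in these lists were at genes with few regions, and none passed, some having too few calls to be tested. Others could not pass in the direction seen. All 4 young post libraries called the regions of Ms4a6c, Cx3cr1 and Cd300a, so their old calls after transplantation were the fewest possible. All calls of Ms4a6c fell in post libraries, the most its pairs allow. The exact test leaves these differences undecided. Before transplantation the single region of Adgre1, the F4/80 antigen of macrophages, was found in 1 of 4 old but 3 of 4 young libraries, and those of Ctss (cathepsin S) and Fcnb (ficolin B) in 2 of 4 old and 0 of 4 young. The 4 regions of Srgn (serglycin, the proteoglycan core of granules) had 7 of 16 possible calls in old and 12 of 16 in young. After transplantation the region of Ms4a6c and that of the fractalkine receptor gene Cx3cr1 were each found in 1 of 4 old but 4 of 4 young libraries, the same counts as Lyz2, and the 2 regions of Cd300a in 2 of 8 and 8 of 8 possible. Ctss had 1 of 4 against 3 of 4, the integrin gene Itgb2 had 4 of 12 against 10 of 12 and the oxidase gene Ncf4 had 3 of 12 against 9 of 12. Over both stages Cx3cr1 had 1 of 8 old and 5 of 8 young calls, Adgre1 4 and 7 of 8, Cd300a 4 and 10 of 16 and Ms4a6c 1 and 4 of 8. Between stages, Fcnb and Padi4 (a histone-modifying deiminase of neutrophils) rested on 2 of 8 pre and 7 of 8 post calls each, and Ms4a6c on 0 of 8 and 5 of 8, while Cx3cr1 and the chemokine receptor gene Ccr2 had 1 of 8 and 5 of 8 each and Lgals3 (galectin 3) had 3 of 8 and 7 of 8. Of the old post lists, 3 were shorter than every young post list (old post 3 was not), and the part of list length in these single differences was not tested beyond the weights of the exact test.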

How the data were processed

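The submitters' processing notes name the mm10 build and, with no roles or versions, FastQC, MultiQC, Trim Galore, cutadapt, the peak caller Genrich, ChIPseeker, featureCounts and DESeq2. Aligner and settings were not found in these notes. The deposited narrowPeak lists, 1 per library, hold 2 scores (area, and area per base), a −log10 p and a −log10 q per peak, none normalised between libraries. Of 387029 peaks, 393 (0.102%) on unplaced scaffolds were left out. Peaks overlapping by 1 bp were merged, and a gene was assigned by the distance of the median summit from the gene span (GRCm38.p6, 21631 genes; of overlapping genes, the one with the nearer end). The genes and lists were chosen with earlier results of these data known.

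The main test was exact and conditional on the number of calls, with each library weighted by the log odds that it calls a region (conditional maximum likelihood over all regions), at an adjusted threshold of 0.05. It took regions called in 3 to 5 of 8 or 4 to 12 of 16 libraries, or, for post against pre, differing in at least 5 of 8 donors. The donor was the block there, since the series design pairs the libraries. Deviations of paired libraries from their group means correlated at -0.331 to 0.194 over regions. The test was tested on simulated data. All regions of the 10 genes are described, and of the wider lists, regions that passed and the 4 genes (with ties) of largest difference per comparison. Python 3.11.15, numpy 2.4.6, pandas 2.3.3, scipy 1.17.1, R 4.3.3, limma 3.58.1 and matplotlib 3.10.9 were used. Exact p values measure how far the calls depart from independent calls at the library weights, and no spread between mice was estimated. Those of limma rest on the spread between these libraries. The weights were fitted to these same calls, so a difference shared by most regions is taken up by them. Each alternative changed 1 setting, and some changed the libraries, blocks or call limits along with it, such as shared days and the replicate block. In post against pre, leaving out a library also removed its partner. The result of 1 marker list is not reported here.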

Additional observations from a re-analysis of the deposited data

Results flagged for a closer look

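Prtn3 region 1 stood at the 60.2nd percentile of area in young post 3, among the regions called in every library, while the other young post libraries lay between 50 and 51.1. The gap is 0.892 of the range of the group, above the value that Dixon tables give at the 95% level for 4 libraries. With 16 sets of 4 libraries screened, about 1 in 20 such sets passes by chance.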

How the results depend on the processing

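The count of the 10 regions past the threshold was 0 in each alternative of the 3 age comparisons that tested any of them, leave-one-out fits included, and in those of post against pre except limma on presence, which called 2 (S100a9 and Csf1r region 2) without regard to list length. In the main setting, the regions tested in post against pre could not pass as higher in post, so the 0 there does not decide on a gain. No replicate block for post against pre gave 0 of 5 tested, and the replicate block of old with young libraries of the same number gave 0 of 2 tested after transplantation and left none to test before it or over both stages. It changed no call that could be made. Between the ages over both stages, calls above expectation in old turned sign on shared transposition days for S100a9 (-0.000878) and Csf3r (-0.00973), and for Csf1r region 2 when 1 library was left out (-0.59 without old post 2 to 0.0715 without old pre 2), all at adjusted p = 1.0. Over all regions, 24 passed after transplantation, and 0 without weights, with shortened lists, with areas of at least 2 times the smallest or on shared days, 1 where peaks had to cover 50% of a region, 4 with the replicate block and 513, all lower in old, by limma. Without 1 library that count was 0 (young post 2, 3 or 4), 2 (young post 1, old post 1 or 2), 4 (old post 3) or 20 (old post 4). Over both stages 41 passed, and 0 without weights or by limma, 16 with shortened lists, 12 with larger areas, 7 with the replicate block, 5 on shared days and 10 conditional on stage. It was 13 without old pre 1, 2 without old pre 3, 8, 14 and 7 without young post 1, 3 and 4, and 65 without old post 2. In post against pre 19 passed, and 0 without weights, 3 with shortened lists, 7 with larger areas, 61 with no replicate block and 756, with 753 higher in post, by limma. Without the young pairs 1, 2 and 3 it was 7, 4 and 4, and without the old pairs 1, 2 and 3 it was 8, 10 and 9. The cause of these shifts was not tested. With the 2 shortest lists left out, chosen after seeing the data, 0 of the 10 regions passed in any comparison they enter. Shortened lists left 0 of the 10 regions to test in each comparison, as did, after transplantation, larger areas, shared days and leaving out old post 1, 2 or 4, so these say nothing of stability. Read depth per library is unknown, and weak regions can be missed in short lists.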
